A study of Mus musculus with 24 samples.

Results

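The 40 genes described here encode proteins that take a cell through G2 phase and mitosis, including the kinetochore, which couples chromosomes to the spindle. They were taken by symbol from a list of G2/M, spindle and kinetochore genes, and each symbol matched exactly 1 of the 56941 gene IDs in the count table. The measurements are RNA sequencing counts from mouse bone marrow-derived macrophages (BMDM), cells grown out of bone marrow with the macrophage growth factor that L929 cells release into their medium. The study compared 3 genotypes, namely wild type (WT), a knockout of the histone deacetylase gene Hdac9 (KO), and deltaCIS (dCIS), in which a cis-regulatory element is deleted that the series' title ties to HDAC9 expression. Each genotype was left untreated or treated for 6 hours with lipopolysaccharide (LPS), the bacterial cell wall component that TLR4 recognises, at 100 ng/ml, with 4 libraries in each of the 6 groups. In all groups the differentiated cells had been replated without the conditioned medium and were then kept without calf serum while LPS was or was not present. The labels do not say whether the knockout is constitutive, nor the strain, sex or age of the mice. Whether the 4 libraries of a group came from different mice or cultures is not said either, so the p-values measure a spread between libraries that may be technical.

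Mitosis is started by cyclin B with the kinase Cdk1, aided by Plk1 and the Aurora kinases, and it ends when the anaphase-promoting complex, switched on by Cdc20, marks cyclins and securin for destruction. In between, the spindle checkpoint holds anaphase until every kinetochore is bound to microtubules, and the midzone proteins then build the furrow that parts the daughter cells. Most of these genes are transcribed from late S phase to mitosis and are kept silent in resting cells by the DREAM complex, so their RNA is widely used as a measure of how many cells of a population are cycling. Growing macrophages divide in response to the receptor Csf1r, and LPS is known to stop that division.

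The targeted gene was low in KO, as the label says. Hdac9 measured 9.15, 12.4, 11.4 and 12.0 CPM (counts scaled to a common library size) in the 4 untreated WT libraries. The untreated KO libraries held 1.31, 0.884, 0.841 and 1.13 CPM, and those of dCIS 17.9, 17.0, 13.0 and 14.5. Treated libraries held 11.4, 16.5, 10.4 and 11.0 CPM (WT), 0.464, 0.0898, 0.334 and 0.319 (KO) and 16.5, 21.2, 9.89 and 11.0 (dCIS). All 8 KO libraries lay below all 16 others, and the log2 difference from WT was -3.43 ± 0.25 (SE) untreated and -5.32 ± 0.33 after LPS. Total counts ran from 14636058 to 19181707 per library, and a count was seen for 17628 and 15997 genes in dCIS libraries 3 and 4 after LPS, where the other 22 libraries had 20458 or more. The 8 macrophage markers summed to between 15482 and 26443 CPM per library, with 576 to 1680 CPM for Csf1r, and the LPS response list rose in 8 of 8 genes in each genotype. Most markers of other cells were near 0. Their sums were at most 4.22 CPM for progenitors, 5.21 for neutrophils, 0.575 for lymphocytes and 5.03 for dendritic cells. The erythroid list summed to 118 to 274 CPM, nearly all of it from Tfrc, the transferrin receptor gene, which growing cells of many types use. Of the other erythroid genes Klf1 reached at most 0.194 CPM and Hbb-bt and Alas2 were at 0 in all 24 libraries. Tfrc fell after LPS by 0.67 in WT, 0.80 in KO and 0.61 in dCIS on the log2 scale. The fibroblast list summed to at most 0.402 CPM untreated and to between 6.38 and 12.7 after LPS, of which Pdgfrb made 6.38 to 11.6. The part of these markers in the results was not tested. In bulk RNA, fewer cycling cells and less of these RNAs per cycling cell cannot be told apart.

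Almost the whole set was lower after LPS. In WT 37 of the 40 genes fell, 1 rose and 2 were not called, where a call is an adjusted p under 0.05 in edgeR's quasi-likelihood test over all 14757 tested genes. All 40 passed the filter on low counts. Of all tested genes 31% fell and 30.4% rose in WT. In KO 36 fell, 1 rose and 3 were not called, against 30.7% and 30.9% of all genes. In dCIS 38 fell, 1 rose and 1 was not called, against 33.3% and 31.3%. The median log2 fold change of the 40 was -2.45 in WT, -2.71 in KO and -2.36 in dCIS, while the median over all tested genes was 0.00, 0.02 and -0.05. The 3 contrasts share no library. The same 36 genes fell in all 3 genotypes, 24 of them by over 2 on the log2 scale in each, and 1 gene, Tpx2, rose in all 3. The 4 LPS libraries lay entirely below the 4 untreated ones for 34 members in WT, 35 in KO and 36 in dCIS, against 31.2%, 28.8% and 26.1% of all tested genes, and entirely above them for 1 member each (30.6%, 30.1% and 25.3% of all genes). Summed over the 40 genes, untreated libraries held 366 to 765 CPM in WT, 355 to 672 in KO and 662 to 1157 in dCIS. After LPS the sums were 223 to 343, 213 to 290.3 and 247 to 428 CPM. The highest LPS library of each genotype was thus below its lowest untreated library.

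**Figure D1:**
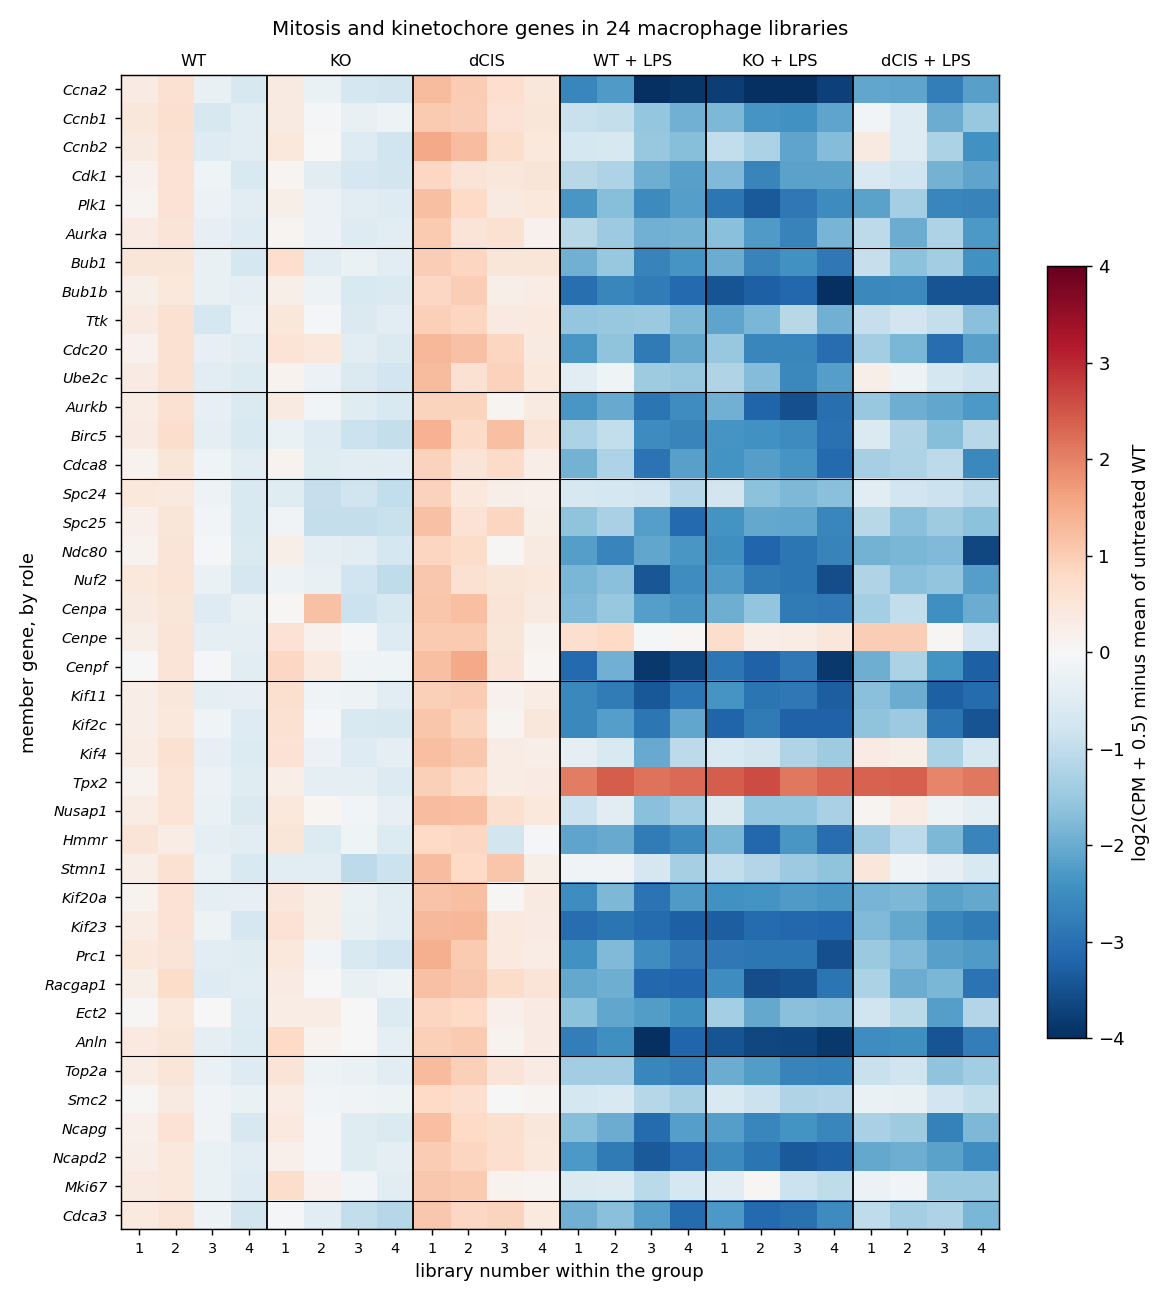
Heat map of the 40 genes (rows, by role, separated by thin lines) in the 24 libraries (columns, 4 per group), as log2(CPM + 0.5) minus the mean of the 4 untreated WT libraries, with red higher and blue lower. Most of the 3 LPS blocks is blue. Tpx2 is red in all 12 LPS libraries, Cenpe is near white or pale red in most of them, and Ccnb2, Ube2c, Kif4, Nusap1 and Stmn1 are pale red in 1 or more dCIS libraries after LPS.

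Since the genes moved together, their promoters were compared, from 250 bases before to 50 after the annotated start in the RefSeq table of GRCm38.p6. Ccna2, Aurkb, Spc24, Tpx2, Stmn1 and Kif20a have no entry there, and 34 of 40 matched. As background, mitotic promoters often carry a CHR, the element bound by the MuvB core of the DREAM complex, downstream of CCAAT boxes, which bind NF-Y. The letters searched on both strands were TTTGAA or TTCGAA for a CHR (the latter reads the same on both strands) and CCAAT, each motif counted apart from the other, so that matches may overlap. A CHR word was found for 29 of the 34 genes (85.3%), against 21.7% of 27025 genes with a window, and CCAAT for 28 (82.4%), against 41.1%. A CHR word together with at least 2 CCAAT was found for 18 (52.9%), against 2.675% of all genes. The letters TATAAA were in 1 member (2.94%), against 15.7% of genes. E2F words (TTTCCCGC, TTTGGCGC or TTTCGCGC) were in 3 (8.82%), against 2.12%. Printed 5′ to 3′ along the gene, with CHR words and CCAAT or its reverse complement ATTGG in capitals, are the first 4 by alphabet of the 18 genes with both, and Cenpe, which was added after its values were seen because it did not fall.
Aurka (chr2:172370521-172370820, minus strand): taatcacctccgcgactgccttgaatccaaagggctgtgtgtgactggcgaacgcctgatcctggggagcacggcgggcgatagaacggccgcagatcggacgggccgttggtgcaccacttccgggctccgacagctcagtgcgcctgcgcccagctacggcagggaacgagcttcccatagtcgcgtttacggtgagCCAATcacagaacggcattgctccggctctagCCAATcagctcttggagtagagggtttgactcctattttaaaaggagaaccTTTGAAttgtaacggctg
Bub1 (chr2:127831810-127832109, minus strand): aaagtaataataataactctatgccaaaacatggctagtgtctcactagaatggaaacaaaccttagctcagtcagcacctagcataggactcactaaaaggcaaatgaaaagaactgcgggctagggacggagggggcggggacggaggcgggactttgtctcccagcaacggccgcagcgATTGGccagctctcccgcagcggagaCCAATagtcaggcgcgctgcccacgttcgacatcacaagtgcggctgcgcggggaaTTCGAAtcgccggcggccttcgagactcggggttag
Ccnb2 (chr9:70421505-70421804, minus strand): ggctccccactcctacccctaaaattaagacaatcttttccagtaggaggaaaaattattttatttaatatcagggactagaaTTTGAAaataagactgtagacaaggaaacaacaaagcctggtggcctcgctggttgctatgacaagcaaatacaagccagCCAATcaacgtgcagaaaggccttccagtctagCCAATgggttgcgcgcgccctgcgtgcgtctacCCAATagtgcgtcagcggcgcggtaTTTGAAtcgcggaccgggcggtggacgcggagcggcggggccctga
Cdc20 (chr4:118437294-118437593, minus strand): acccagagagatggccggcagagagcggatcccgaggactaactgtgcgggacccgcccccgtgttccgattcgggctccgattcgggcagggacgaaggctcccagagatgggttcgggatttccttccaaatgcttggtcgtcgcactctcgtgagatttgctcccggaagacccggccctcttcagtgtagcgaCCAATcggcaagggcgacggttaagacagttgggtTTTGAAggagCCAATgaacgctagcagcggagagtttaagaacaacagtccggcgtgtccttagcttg
Cenpe (chr3:135212313-135212612, plus strand): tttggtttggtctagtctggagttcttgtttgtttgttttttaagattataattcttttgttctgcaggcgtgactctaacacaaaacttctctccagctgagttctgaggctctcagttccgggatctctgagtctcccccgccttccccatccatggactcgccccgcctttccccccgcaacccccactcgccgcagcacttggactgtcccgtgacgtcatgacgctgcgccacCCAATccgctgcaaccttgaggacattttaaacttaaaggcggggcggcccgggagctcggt
In Aurka the CCAAT words begin 51 and 19 bases before the start and the CHR word 32 bases after it. Bub1 has the inverted CCAAT at 68 and the direct one at 42 bases before the start, and its CHR word 14 bases after. Ccnb2 holds 3 CCAAT words 87, 54 and 21 bases before the start, with 1 CHR word 4 bases after it and another 167 bases before. In Cdc20 the CHR word begins 18 bases before the start and lies between CCAAT words at 53 and 8. The Cenpe window holds 1 CCAAT, 12 bases before the start, and neither CHR word. A match is a description and does not show that a factor binds there. After LPS in WT, all 29 genes with a CHR word fell, as did 4 of the 5 without one (Ccnb1, Birc5, Nuf2 and Nusap1, but not Cenpe). Among other tested genes the share that fell was smaller than among the members. With a CHR word 583 of 1562 (37.3%) fell in WT. With a CHR word and at least 2 CCAAT 105 of 251 genes (41.8%) fell in WT, against 3344 of 9250 (36.2%) without the combination. The corresponding shares were 40.6% and 35.8% in KO and 42.6% and 37.6% in dCIS.

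All 6 cyclins and entry kinases fell in each genotype. Ccna2, which encodes cyclin A2, a partner of Cdk2 and Cdk1 from S phase on, had the largest fitted fall among them in each. In WT it measured 23.8, 29.1, 15.2 and 12.0 CPM untreated and 2.70, 3.49, 0.470 and 0.808 after LPS. KO libraries held 24.5, 15.8, 11.4 and 11.0 and then 0.927, 0.719, 0.669 and 0.957 CPM. The dCIS libraries held 45.8, 39.0, 30.7 and 25.9 and then 4.05, 4.03, 2.34 and 3.84 CPM. No LPS library reached an untreated one in any genotype, and the 4 dCIS libraries after LPS, at 2.34 CPM or more, were above all 4 KO ones. The log2 fold change was -3.42 ± 0.38 (SE; adjusted p = 1.67e-08) in WT, -4.25 ± 0.44 (SE; adjusted p = 4.51e-09) in KO and -3.31 ± 0.35 (SE; adjusted p = 7.08e-09) in dCIS. Plk1, the Polo kinase of mitotic entry, also fell, by 2.59 in WT, 3.44 in KO and 3.23 in dCIS (log2 scale, as are all falls given without a unit). Cdk1 had log2 fold changes of -1.66, -1.86 and -1.83, and the Aurora kinase gene Aurka of -1.81, -2.12 and -2.37. The B-type cyclins, which activate Cdk1, had the smallest fitted falls in WT, Ccnb1 by 1.64 and Ccnb2 by 1.27 (edgeR adjusted p = 0.000814 and 0.0157). The Ccnb2 call in WT was lost without untreated library 2 (adjusted p = 0.0636) or treated library 3 or 4 (0.0513 and 0.0576). Ccnb2 measured 9.16, 4.69, 2.64 and 0.900 CPM in treated dCIS libraries, of which the highest was just below the lowest untreated one (20.7, 17.0, 11.7 and 9.45). Cdca3, a trigger of mitotic entry that degrades the kinase Wee1, fell by 2.38, 2.35 and 2.23.

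The 5 genes of the spindle checkpoint and of the anaphase-promoting complex fell in each genotype too. Bub1b encodes BubR1, which binds Cdc20 and so blocks that complex. Its CPM were 14.5, 16.5, 9.81 and 9.26 in untreated WT and 1.06, 1.55, 1.33 and 0.970 after LPS. KO gave 14.5, 10.4, 7.82 and 7.93 and then 0.649, 0.808, 0.920 and 0.159 CPM. In dCIS the values were 22.1, 24.4, 14.3 and 15.2 and then 1.62, 1.64, 0.659 and 0.654. All 12 LPS libraries were at 1.64 CPM or below and all 12 untreated ones at 7.82 or above. Bub1b fell by 3.34 ± 0.32 (SE) in WT, 4.00 ± 0.36 in KO and 4.06 ± 0.32 in dCIS on the log2 scale, with edgeR adjusted p = 8.54e-10, 3.06e-10 and 2.22e-11. Its partner kinase Bub1 fell by 2.52, 3.01 and 2.47, and Ttk, the kinase Mps1 that recruits the checkpoint to kinetochores, by 2.28, 2.26 and 2.05. Cdc20, the activator that the checkpoint restrains, fell by 3.10, 3.62 and 3.85, with SEs of 0.57, 0.62 and 0.54. Its counts were small, at 22 over the 4 WT libraries after LPS, and it had 0 counts in KO library 4 and dCIS library 3 after LPS, which allows up to 0.239 and 0.220 CPM. Ube2c, the ubiquitin-conjugating enzyme of the complex, had the smallest fitted fall of the 5, 0.92 in WT (edgeR adjusted p = 0.0222), 1.73 in KO and 1.19 in dCIS. Its WT call was lost without untreated library 1 or 2 (adjusted p = 0.0603 and 0.107) or treated library 3 or 4 (0.0839 and 0.0892), and its dCIS call without treated libraries 3 and 4 together (0.0781).

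**Figure D2:**
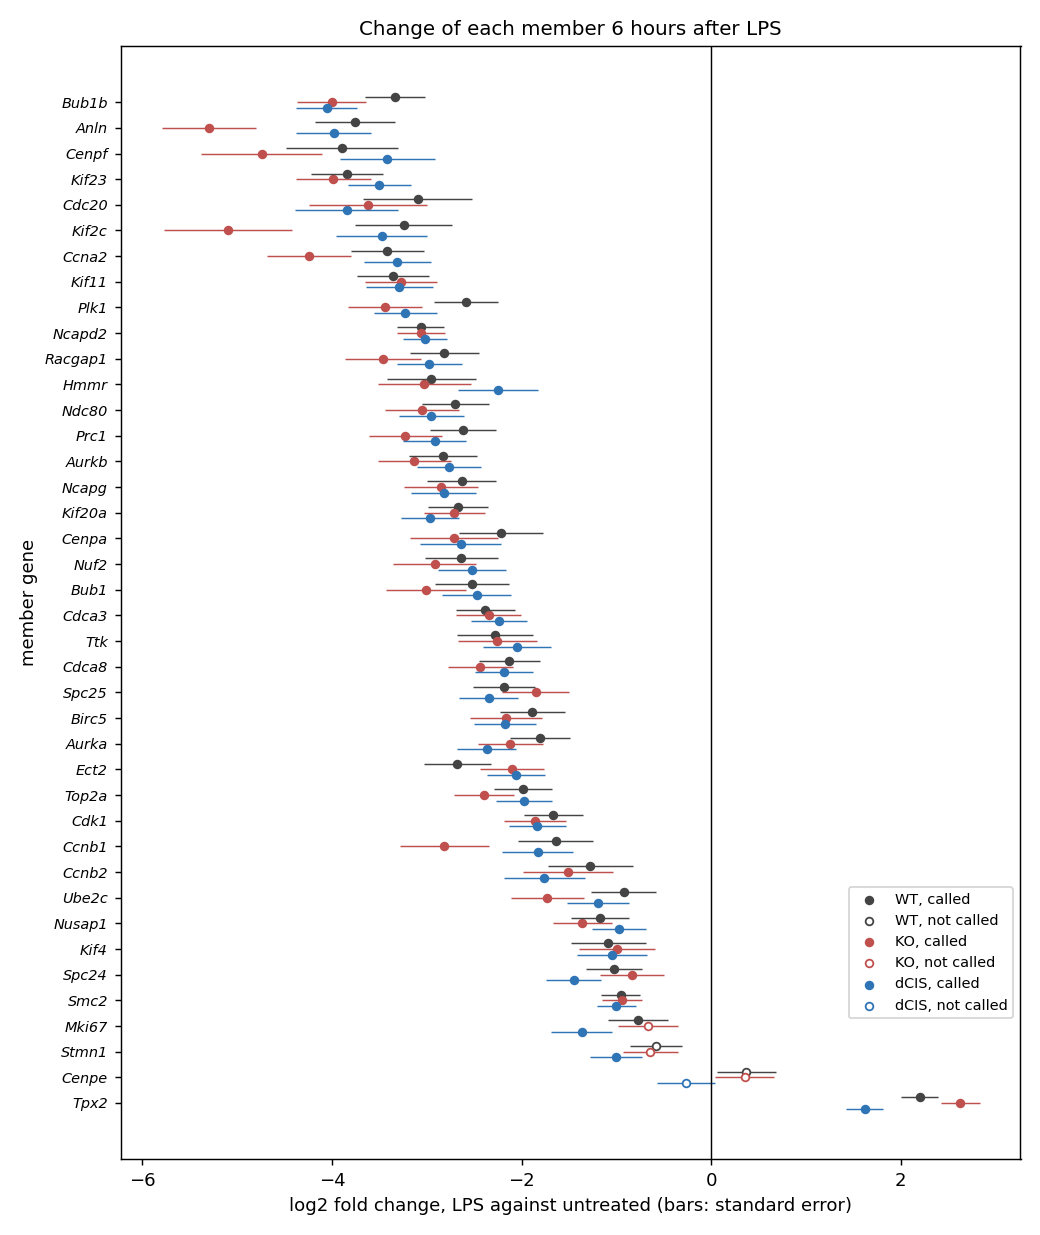
Log2 fold change of each gene after LPS against untreated (x axis, bars are the SE of the edgeR fit) in WT (black), KO (red) and dCIS (blue), with genes sorted by their median over the genotypes and open circles for values that were not called. The medians run from -4.0 for Bub1b to 2.20 for Tpx2, the lowest single points are Anln and Kif2c in KO at -5.30 and -5.10, with Cenpe the sole gene that is open in all 3 genotypes.

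The chromosomal passenger complex corrects faulty attachments at the centromere and then moves to the midzone, and its 3 listed genes fell in each genotype. Aurkb, its kinase, measured 12.3, 15.4, 7.86 and 6.45 CPM in untreated WT and 1.55, 2.10, 0.862 and 1.37 after LPS. The KO values were 12.8, 9.12, 6.93 and 6.29 and then 2.23, 0.629, 0.418 and 0.797 CPM. For dCIS they were 18.8, 18.7, 10.8 and 12.9 and then 3.16, 2.22, 1.98 and 1.64 CPM. The treated and untreated libraries did not overlap in any genotype, and the log2 fold changes were -2.83, -3.13 and -2.76. Birc5, which encodes survivin, fell by 1.89, 2.16 and 2.17, and Cdca8, which encodes borealin, by 2.13, 2.44 and 2.19.

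Of the 7 kinetochore and centromere genes, 6 fell in each genotype and Cenpe did not. Ndc80, Nuf2, Spc24 and Spc25 encode the 4 subunits of the NDC80 complex, the main microtubule anchor of the kinetochore, and all 4 fell in each genotype. In WT, KO and dCIS, Ndc80 fell by 2.70, 3.05 and 2.95, and Nuf2 by 2.64, 2.92 and 2.52. Spc25 fell by 2.18, 1.85 and 2.35, and Spc24 by 1.03, 0.83 and 1.45. The differences between subunits were not tested. Spc24 had the smallest fitted fall, with 4.97, 4.89, 3.05 and 2.18 CPM in untreated WT and 2.13, 2.02, 1.88 and 1.37 after LPS. It measured 2.42, 1.65, 1.83 and 1.55 CPM in untreated KO and 1.95, 0.808, 0.669 and 0.797 after LPS, where library 1 lay above 3 of the untreated libraries. The KO call (edgeR adjusted p = 0.0357) was lost in the fits without untreated library 1 or 3 or treated library 2, 3 or 4 (adjusted p 0.0503 to 0.12). In dCIS it went from 7.33, 4.97, 4.36 and 4.21 to 2.51, 1.89, 1.76 and 1.47 CPM without overlap. Cenpf, a large kinetochore protein that loads dynein, had the largest fall in WT, 3.90 ± 0.59 (SE), from 6.64, 9.69, 6.48 and 4.80 CPM to 0.327, 1.40, 0 and 0.0808. In KO it fell by 4.74 and in dCIS by 3.42. It had 0 counts in WT library 3 and KO library 4 after LPS, which allows up to 0.235 and 0.239 CPM. Cenpa, the histone H3 variant that marks centromeres, fell by 2.22, 2.72 and 2.64, and its untreated KO values were 9.30, 20.9, 4.70 and 5.63 CPM, with library 2 the highest.

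Cenpe encodes CENP-E, the kinesin that carries chromosomes to the spindle equator, and it was not called in any genotype. Untreated WT libraries measured 13.7, 16.7, 8.86 and 8.92 CPM and treated ones 18.7, 20.5, 11.1 and 11.9. In KO the values were 17.4, 13.3, 10.9 and 8.03 and then 19.2, 14.0, 14.3 and 16.0 CPM. In dCIS they were 24.5, 24.7, 16.4 and 12.8 and then 23.7, 23.2, 11.9 and 6.62 CPM. Treated and untreated libraries overlapped in all 3 genotypes, and dCIS libraries 3 and 4 after LPS were the lowest of their group. The log2 fold change was 0.37 ± 0.31 (SE; adjusted p = 0.317) in WT, 0.36 ± 0.31 (SE; adjusted p = 0.337) in KO and -0.26 ± 0.31 (SE; adjusted p = 0.471) in dCIS. With a replicate block within each genotype the value was 0.37 in WT (edgeR adjusted p = 0.032), 0.39 in KO (adjusted p = 0.0252) and -0.35 in dCIS (adjusted p = 0.0397). Cenpe was thus called higher in WT and KO and lower in dCIS. Treated and untreated dCIS libraries did not meet the rule used here for pairing, though each correlated most with the library of its own number. Without dCIS libraries 3 and 4 after LPS the dCIS value turned to 0.26 (adjusted p = 0.479). In the fit without the filter on low counts all 40 members were called in dCIS, 39 lower and 1 higher. Cenpe was among those called lower there.

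Of the 7 spindle motor and microtubule genes, 5 fell in WT and KO and 6 in dCIS. Kif11, the motor Eg5 that pushes spindle poles apart, measured 14.6, 16.6, 9.29 and 9.55 CPM in untreated WT and 1.63, 1.32, 0.706 and 1.21 after LPS. In KO it went from 19.4, 11.0, 10.5 and 8.73 to 1.95, 1.17, 1.25 and 0.797 CPM. In dCIS it went from 23.9, 25.3, 13.6 and 14.9 to 3.49, 2.71, 0.806 and 0.981 CPM. The log2 fold changes, -3.36, -3.27 and -3.29, differed by less than the SE of each. Kif2c, which encodes the microtubule depolymerase MCAK, fell by 3.24 in WT and 3.48 in dCIS, and by 5.10 ± 0.67 (SE) in KO, where it had 6 counts over the 4 treated libraries. Hmmr, a spindle pole protein that is also called RHAMM, fell by 2.95, 3.02 and 2.25. The reads of Kif11 and of 2 processed pseudogenes inside it, which hold 442 counts over all libraries against 4014 for Kif11, may be shared. Kif4, a chromosome-bound kinesin, fell by 1.08, 0.99 and 1.05, and Nusap1, a microtubule-bundling protein, by 1.17, 1.36 and 0.97. The call of Kif4 was lost in WT without untreated library 2 or treated library 3 (adjusted p = 0.0834 and 0.082), in KO without untreated library 1 or treated library 3 or 4 (0.168, 0.0819 and 0.101) and in dCIS without untreated library 1 or treated library 3 or 4 (0.0584, 0.065 and 0.0528). Nusap1 in dCIS was not called without treated libraries 3 and 4 together (0.0759).

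Tpx2 moved the other way. It encodes the spindle assembly factor that activates Aurora A and is released around chromosomes by the GTPase Ran. Untreated WT libraries held 25.4, 33.8, 19.2 and 16.1 CPM and treated ones 95.6, 124, 103 and 111. KO libraries held 27.5, 17.4, 17.5 and 15.5 and then 123, 142, 100 and 117 CPM. In dCIS the values were 44.5, 38.9, 28.2 and 28.5 and then 120, 121, 90.2 and 101 CPM. The 12 treated libraries, at 90.2 CPM or more, lay above the 12 untreated ones, which reached 44.5. The log2 fold change was 2.20 ± 0.20 (SE; adjusted p = 3.39e-10) in WT, 2.63 ± 0.20 (SE; adjusted p = 1.38e-11) in KO and 1.62 ± 0.20 (SE; adjusted p = 5.73e-08) in dCIS, that is 4.59-fold, 6.19-fold and 3.08-fold higher. While Tpx2 rose, Aurka, whose kinase it activates, fell by 1.81, 2.12 and 2.37. Tpx2 overlaps no gene with counts in the GENCODE annotation of GRCm38, and neither does Cenpe. Among the members that fell, Ccna2, Cdc20, Cdca8, Kif4, Kif20a, Ncapg, Nusap1 and Prc1 each overlap an expressed gene on the other strand, and the strand setting of the counting is not given in the sources used here. The widest gap is at Cdc20, with 1366 counts over all libraries against 49787 for Elovl1.

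Stmn1, which encodes the tubulin-binding protein stathmin, was called lower in dCIS but not in WT or KO. WT libraries measured 39.0, 49.4, 26.3 and 20.6 CPM untreated and 29.2, 28.7, 20.1 and 12.4 after LPS. KO libraries measured 23.9, 23.4, 15.2 and 17.3 and then 16.0, 13.8, 11.5 and 10.0 CPM. dCIS libraries measured 76.7, 56.0, 70.1 and 37.6 and then 44.4, 29.0, 25.3 and 21.0 CPM. Treated and untreated libraries overlapped in all 3 genotypes. The log2 fold changes were -0.58 ± 0.28 (SE; adjusted p = 0.0714), -0.64 ± 0.29 (SE; adjusted p = 0.0565) and -1.0 ± 0.27 (SE; adjusted p = 0.00227), and the dCIS minus WT difference of -0.42 was not called (adjusted p = 0.803). With the replicate block within each genotype the WT and KO values were called too (adjusted p = 0.000115 and 8.56e-05). DESeq2 called both (adjusted p = 0.0456 and 0.023). Both were also called without the filter on low counts and with the replicate block over all groups. The KO value was called too with median-of-ratios factors and in the fit of the groups compared alone. Stmn1 was also called in WT without untreated library 3 or 4 or treated library 1 or 2 (0.0494, 0.0219, 0.0427 and 0.0455), and in KO without untreated library 3 or treated library 1 (0.0361 and 0.0432), while without dCIS libraries 3 and 4 after LPS the dCIS value, -0.71, was not called (adjusted p = 0.0696).

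Cell division itself is carried out by the midzone and cytokinesis genes, and all 6 fell in each genotype. Kif20a, a kinesin that brings the passenger complex to the midzone, measured 11.1, 15.1, 7.58 and 7.85 CPM in untreated WT and 1.39, 2.56, 0.862 and 1.70 after LPS. It measured 13.9, 11.9, 8.22 and 7.18 CPM in untreated KO and 1.48, 1.53, 1.67 and 1.59 after LPS, the smallest spread of any member in any group relative to its mean. In dCIS the CPM were 22.8, 23.8, 10.4 and 12.9 and then 2.43, 2.55, 1.90 and 2.04. Treated libraries stayed at 2.56 CPM or below and untreated ones at 7.18 or above. Kif23, which with Racgap1 forms the centralspindlin complex, fell by 3.84, 3.99 and 3.50, and its values after LPS were 0.736, 0.854, 0.706 and 0.566 CPM in WT and 0.556, 0.719, 0.669 and 0.638 in KO. Racgap1 fell by 2.81, 3.46 and 2.97, and Ect2, the exchange factor that centralspindlin recruits to activate RhoA, by 2.68, 2.10 and 2.06. Anln, which encodes the furrow scaffold anillin, fell by 3.76 in WT, 3.98 in dCIS and 5.30 ± 0.50 (SE) in KO. In KO Anln went from 16.2, 10.0, 8.91 and 6.85 CPM to 0.371, 0.270, 0.251 and 0.159. Prc1, the midzone microtubule bundler, fell by 2.62, 3.23 and 2.92.

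All 5 genes of chromosome structure fell in WT and dCIS, and 4 fell in KO, where Mki67 was not called. Top2a, the topoisomerase that untangles sister chromatids, measured 60.4, 69.0, 41.2 and 34.6 CPM in untreated WT and 18.6, 18.6, 7.76 and 6.95 after LPS. In KO it measured 71.5, 42.8, 41.3 and 36.7 and then 12.1, 10.2, 7.36 and 7.10 CPM. In dCIS it measured 120, 96.4, 71.5 and 61.6 and then 26.4, 28.2, 16.0 and 18.6 CPM. There was no overlap in any genotype, and the log2 fold changes were -1.98, -2.39 and -1.97. Within condensin I, the ring that compacts mitotic chromosomes, Ncapd2 fell by 3.07, 3.06 and 3.02 and Ncapg by 2.63, 2.85 and 2.82. Smc2, which is shared by condensins I and II and needed in all dividing cells, fell by 0.95, 0.94 and 1.0. Mki67, the gene of the proliferation antigen Ki-67, measured 65.9, 69.2, 42.5 and 36.0 CPM in untreated WT and 34.1, 35.0, 24.1 and 31.7 after LPS. KO libraries gave 84.8, 57.6, 47.6 and 38.1 and then 38.5, 52.6, 28.1 and 25.0 CPM. dCIS libraries gave 109, 106, 56.6 and 55.6 and then 43.4, 47.8, 17.9 and 18.0 CPM. Treated libraries lay wholly below untreated ones in WT and dCIS but overlapped them in KO. The log2 fold change of Mki67 was -0.77 ± 0.32 (SE; adjusted p = 0.0368) in WT, -0.66 ± 0.32 (SE; adjusted p = 0.071) in KO and -1.37 ± 0.32 (SE; adjusted p = 0.000537) in dCIS, and KO was called with the replicate block within each genotype (adjusted p = 0.00034), with median-of-ratios size factors (0.0496), without KO library 4 untreated (0.0358) and without KO library 2 after LPS (0.0244). The KO value was also called without the filter on low counts, with the replicate block over all groups and in the fit of the groups compared alone. In WT the call was lost without untreated library 1 or 2 or treated library 1, 3 or 4 (adjusted p 0.0514 to 0.118).

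**Figure D3:**
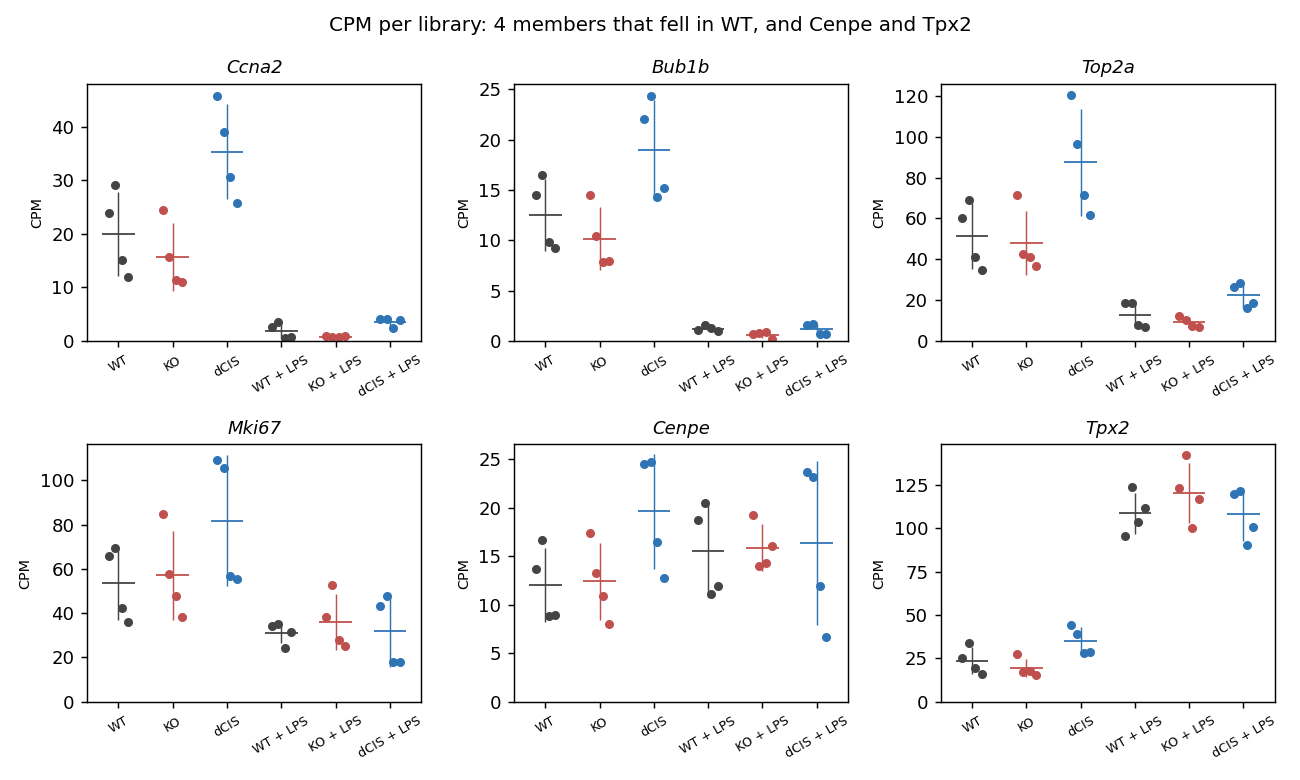
CPM per library (points; y axes start at 0) with the mean (line) and SD of 4 libraries (bar) for 6 of the genes in the 6 groups. Ccna2, Bub1b and Top2a drop in every genotype, treated and untreated Cenpe libraries overlap in every genotype and those of Mki67 in KO, and Tpx2 climbs from at most 44.5 to at least 90.2 CPM.

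Genes of the same processes outside the 40 were read from lists chosen for this purpose. Of 37 further kinetochore and centromere genes, 29 fell and 1 rose in WT, 25 fell and 2 rose in KO, and 29 fell and 0 rose in dCIS, with a median log2 fold change of -1.16 in WT. Nsl1 and Ska2, an outer kinetochore subunit and part of the Ska complex, fell by 3.13 and 2.63 in WT, the checkpoint gene Mad1l1 by 1.06, and Zwint rose by 0.31. Of 28 further spindle and cytokinesis genes, 24 fell and 2 rose in each genotype, with a median of -2.61 in WT. Kif20b and Kif22 fell by 3.41 and 3.97, while Ndel1 and Ckap5, which act on microtubules in resting cells too, rose by 0.83 and 0.29. The list around cyclin B, Cdk1 and chromatid separation lay nearer to the shares of all tested genes. Of its 24 genes 11 fell and 6 rose in WT, 12 fell and 6 rose in KO, and 14 fell and 4 rose in dCIS. Espl1, which encodes separase, and Cdc25b, the phosphatase that activates Cdk1, fell by 4.82 and 3.88 in WT. Pttg1, which encodes securin, the inhibitor of separase, rose by 2.76 ± 0.18 (SE), and Ube2s, the chain-elongating enzyme of the anaphase-promoting complex, by 1.32. Of 17 genes listed as further condensin and cohesin genes, 9 fell and 4 rose in WT. That list also holds the kinesin gene Kif22, which is counted among the spindle genes above as well. Smc3 and Ncaph fell by 1.32 and 3.35, and the cohesin genes Stag2 and Wapl rose by 1.27 and 0.59.

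Between genotypes, untreated dCIS macrophages had fitted levels above those of WT for each of the 40 genes, but no single gene was called. The log2 difference dCIS minus WT ran from 0.30 for Hmmr to 0.99 for Cdc20, with a median of 0.72 over the 40 and 0.00 over all tested genes. edgeR called 0 members and 0.0542% of all genes (8, of which 1 was higher, or 3 of 10 with median-of-ratios factors), DESeq2 called 0 members, and 32 members had an unadjusted p under 0.05. The share of all tested genes under that limit was not taken, here or for the unadjusted counts of the comparisons below. Smallest p-values were those of Ncapd2, at 0.73 ± 0.20 (SE; adjusted p = 0.599), Nusap1, at 0.89 ± 0.27 (SE; adjusted p = 0.972), and Kif23, at 0.86. Ncapd2 measured 29.5, 33.1, 20.3 and 18.2 CPM in WT and 49.7, 45.2, 39.6 and 32.7 in dCIS, where dCIS library 4 lay below WT library 2. No member had all 4 dCIS libraries above all 4 WT ones, against 1.21% of all genes. The difference was positive for all 40 genes in every fit without 1 library, while the members with p under 0.05 dropped to 14 without WT library 3, 10 without WT library 4, 10 without dCIS library 1 and 20 without dCIS library 2. Same-numbered WT and dCIS libraries did not meet the rule used here for pairing (correlations -0.154 to 0.157), and what they share was not tested. Without the filter on low counts 22 members were called, and 12 in a fit of all groups blocked by replicate number. Of all tested genes 0.221% and 0.23% were called in these fits.

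**Figure D4:**
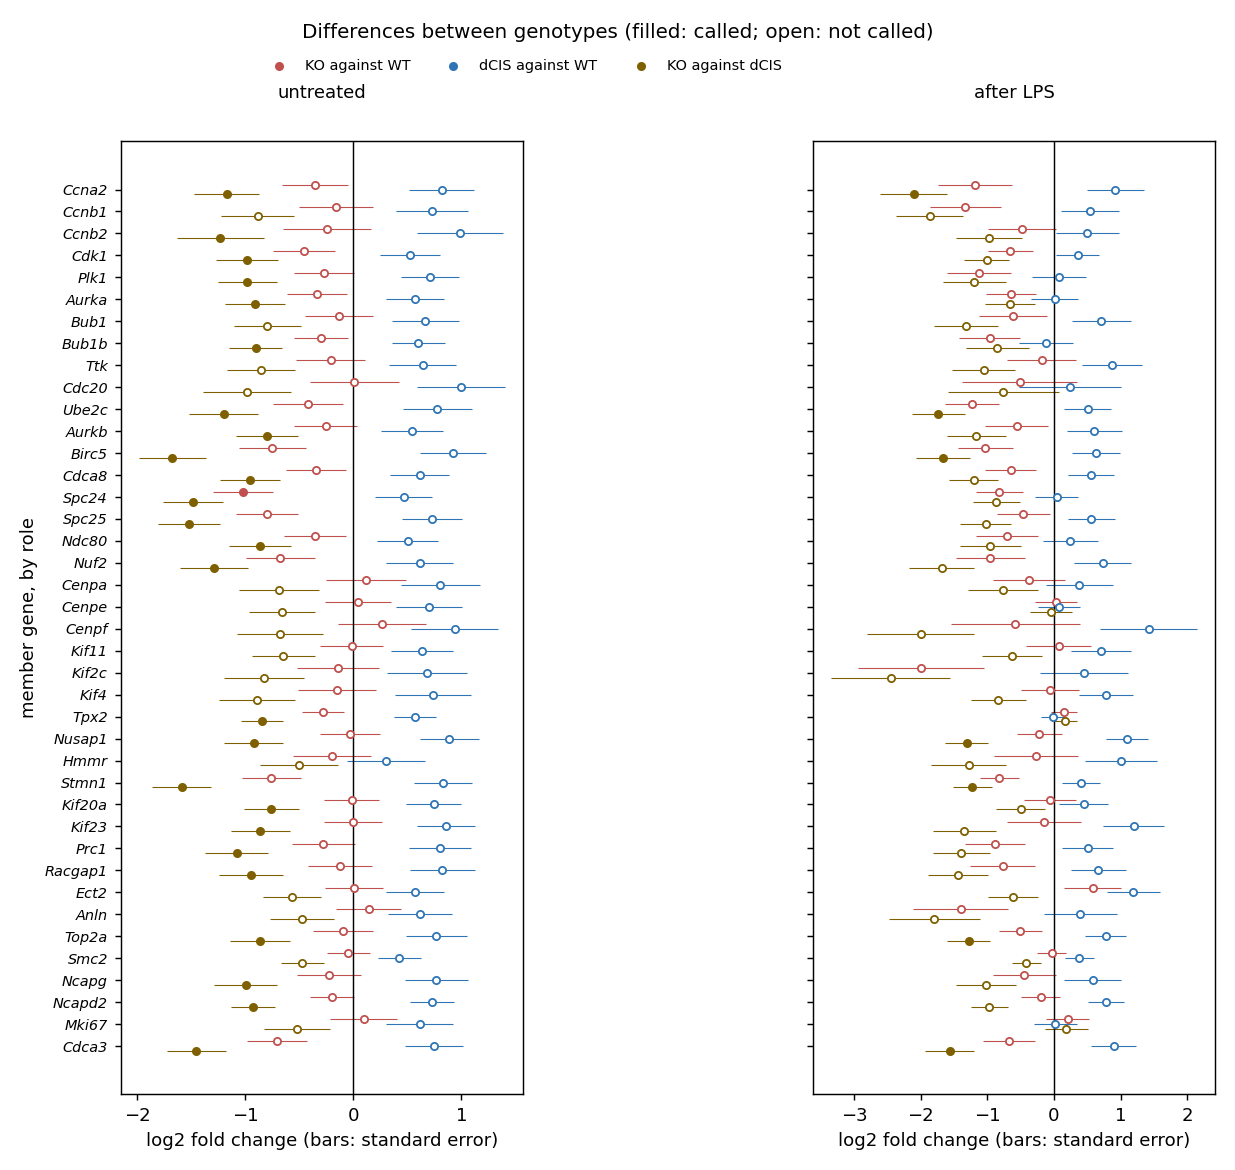
Log2 differences between genotypes for each gene (rows, by role; bars are the SE of the edgeR fit), untreated on the left and after LPS on the right, for KO against WT (red), dCIS against WT (blue) and KO against dCIS (brown), with filled circles for called values. All blue points on the left lie right of 0 and none is filled, while 25 brown points and 1 red one, Spc24, are filled there and 7 brown points on the right.

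Between untreated KO and WT 1 of the 40 members was called, Spc24, against 7.31% of all tested genes, and 6 members had an unadjusted p under 0.05. Spc24 was lower in KO, at -1.02 ± 0.28 (SE; adjusted p = 0.0311), with 2.42, 1.65, 1.83 and 1.55 CPM in KO against 4.97, 4.89, 3.05 and 2.18 in WT, where WT library 4 lay below KO library 1. This call was lost in 7 of the 8 fits without 1 library (edgeR adjusted p 0.0525 to 0.13). It held without WT library 4, when 4 members were called. DESeq2 called 0 of the 36 members to which it gave an adjusted p, where 14.2% of all tested genes were called. It gave none to Spc24 and so cannot speak to that call. The other NDC80 subunits were not called, with log2 differences of -0.80 for Spc25, -0.67 for Nuf2 and -0.36 for Ndc80. Over the 40 genes the median was -0.20 with 33 negative, and in the fits without 1 library it ran from -0.49 (without KO library 1) to 0.00 (without WT library 2, with 20 negative). Of all called genes 742 were higher and 337 lower in KO, and with median-of-ratios factors 1129 of 1421 were higher. No member separated KO from WT libraries fully, against 9.49% of all genes that did so in the direction of lower values.

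KO and dCIS differed in 25 of the 40 genes when untreated, all lower in KO, against 9.25% of tested genes that were lower. All 40 differences were negative, with a median of -0.90. This contrast shares its dCIS and KO libraries with the contrasts against WT and is not independent of them. Stmn1 and Birc5 led, at -1.59 ± 0.27 (SE; adjusted p = 0.00101) and -1.67 ± 0.31 (SE; adjusted p = 0.00162). Birc5 measured 12.2, 10.1, 7.92 and 7.42 CPM in KO, 18.5, 24.4, 11.1 and 9.55 in WT and 39.2, 25.4, 34.8 and 21.2 in dCIS, so that every KO library lay below every dCIS library and WT overlapped both. The NDC80 genes Spc25 and Spc24 differed by -1.52 and -1.49, and Nuf2 by -1.29. Cdca3 differed by -1.45, Ccna2 by -1.17, Prc1 by -1.08, Ncapd2 by -0.93 and Tpx2 by -0.85. The 15 that were not called were Ccnb1, Bub1, Ttk, Cdc20, Cenpa, Cenpe, Cenpf, Kif11, Kif2c, Kif4, Hmmr, Ect2, Anln, Smc2 and Mki67. Libraries did not overlap for 18 members, against 7.75% of all genes. The count was 14 without KO library 3, 14 without KO library 4 and 11 without dCIS library 1, between 20 and 30 without any other library, and 21 with DESeq2. Same-numbered KO and dCIS libraries deviated together. With the number as a block in a fit of these 2 groups 39 members were called, an alternative chosen after seeing the data. That fit called 26.3% of all tested genes. The fit of these 2 groups without the block called 9.65% and 23 members.

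After LPS no member was called between KO and WT in edgeR (2.74% of all genes were), while 9 had p under 0.05 before adjustment. DESeq2 called 2 of the 33 members to which it gave an adjusted p, and 7.24% of all tested genes. The median difference was -0.57, which without WT library 2 was -0.28, with 2 members at p under 0.05, and without any other library was between -0.82 and -0.41, with 4 to 13 such members. For 1 member, Bub1b, all KO libraries lay below all WT ones (as for 7.43% of all genes). The smallest p-values belonged to Ube2c at -1.23 ± 0.40 (SE; adjusted p = 0.0864), Stmn1 at -0.82 ± 0.29 (SE; adjusted p = 0.113) and Ccnb1 at -1.33. Between dCIS and WT 0 members were called (0.258% of all genes were), 7 had an unadjusted p under 0.05, and DESeq2 called 1 (1.48% of all genes). The median was 0.55, and 0.91 without dCIS libraries 3 and 4. It was 0.32 without dCIS library 1, 0.38 without WT library 3, and from 0.42 to 0.80 without any other library. Nusap1 led at 1.09 ± 0.31 (SE; adjusted p = 0.127), before Ect2 at 1.19 and Ncapd2 at 0.78. For Nusap1 and Kif23 all dCIS libraries lay above all WT ones, as they did for 2.28% of all genes. In KO against dCIS 7 members were lower, against 0.834% of all genes, and the median was -1.11. They were Ube2c (-1.73), Cdca3 (-1.57), Stmn1 (-1.23), Birc5 (-1.67), Ccna2 (-2.11), Nusap1 (-1.31) and Top2a (-1.28), with edgeR adjusted p from 0.0206 to 0.0334. Ube2c measured 3.90, 2.52, 1.17 and 1.67 CPM in treated KO and 11.4, 8.30, 5.71 and 5.07 in treated dCIS, and it was 1 of 13 members without overlap (2.87% of all genes). The count rests on single libraries, since it was 2 without KO library 2, 0 without KO library 3, 0 without KO library 4 and 2 without dCIS library 1. Without dCIS libraries 3 and 4 it was 5 (0.403% of all tested genes were called), and with DESeq2 18 (4.6%).

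The size of the LPS response was not called different between genotypes for any member. For KO minus WT edgeR called 0 of the 40 members and DESeq2 0, against 0.0203% of all genes, and 0 members had an unadjusted p under 0.05 in edgeR. The median of the differences was -0.26, but 0.02 with 21 of 40 positive without WT library 2 after LPS, and between -0.49 (without KO library 1 after LPS) and -0.05 (without KO library 1 untreated) without any other library. Those with the smallest p were Anln, at -1.54 ± 0.78 (SE), Ccnb1, at -1.18 ± 0.64, and Kif2c, at -1.85 ± 1.03. For dCIS minus WT edgeR called 0 members and 0% of all genes, DESeq2 called 0 members, and 1 member, Tpx2, had an unadjusted p under 0.05. The fitted rise of Tpx2 was smaller in dCIS, with a difference of -0.58 ± 0.27 (SE; edgeR adjusted p = 0.63) that was not called. Bub1b and Cenpe followed, at -0.72 and -0.63. The median was -0.18 with all libraries and had no stable sign, since it was 0.19 without dCIS libraries 3 and 4 after LPS, 0.06 without WT library 2 after LPS, 0.01 and 0.05 without dCIS library 3 or 4 after LPS alone, and between -0.41 and -0.01 without any other library. The SE of the KO minus WT differences ran from 0.27 for Tpx2 to 1.05 for Cenpf, so that small differences in response were not detectable.

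Within groups the 40 genes spread widely and together. Their median coefficient of variation over 4 libraries was 36.2% in untreated WT, 32.6% in KO and 27.6% in dCIS, against 10.0%, 12.4% and 14.3% for other genes of the same range of levels. After LPS it was 41.6%, 34.2% and 44.6%, against 14.5%, 16.8% and 21.6%. The other genes were matched on the range alone, not gene by gene, and that range was wide (0.131 to 121 CPM in KO after LPS). After LPS the median count of a member in a library was 23 in WT, 14.5 in KO and 33.5 in dCIS. Counting noise is thus part of these values, and its share was not tested. Libraries numbered 1 and 2 both lay above those numbered 3 and 4 for all 40 genes in untreated WT, 34 in KO and 33 in dCIS, against 17.8%, 16.7% and 21.3% of all tested genes. After LPS this held for 32, 17 and 31 of the 40, against 16.5%, 20.6% and 33.7%. The labels give the numbers no meaning, and what the libraries of a number share was not tested. In untreated WT, for example, Top2a stood at 60.4 and 69.0 CPM in libraries 1 and 2 and at 41.2 and 34.6 in libraries 3 and 4. The mean log2 level of the 40 genes ran from 2.95 to 3.99 in untreated WT, 2.89 to 3.77 in KO and 3.79 to 4.55 in dCIS, so that the ranges of WT and KO, and those of WT and dCIS, overlapped.

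**Figure D5:**
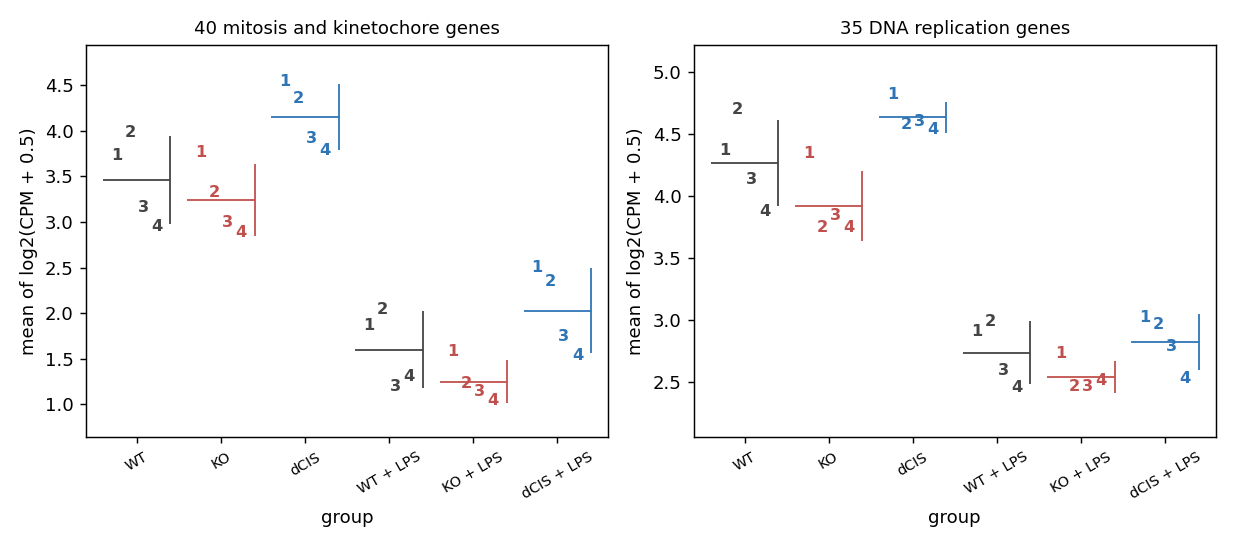
Mean of log2(CPM + 0.5) over the 40 genes (left) and over 35 DNA replication genes (right) in each library, printed as its number, with the group mean (line) and SD of 4 libraries (bar). On the left, 1 and 2 sit above 3 and 4 in every group, and each treated group lies below its untreated group, at 1.04 to 2.50 against 2.89 to 4.55.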

How the data were processed

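The counts are whole reads per mouse gene, made by the authors and deposited as 1 table. STAR, edgeR and the build mm39 were used, per the submitters' processing notes, while no version, counting program, strand setting or annotation is recorded (not given in the sources used here). Per the labels' protocols the RNA was captured on oligo-dT beads. Groups come from the labels' genotype and treatment.

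The 40 genes and the other lists were chosen with earlier results of these data known. Genes were filtered by edgeR's group-aware rule (minimum count 10, minimum total 15), which kept 14757. One edgeR 4.0.16 fit (R 4.3.3, limma 3.58.1) over all libraries, with TMM factors and 1 mean per group, gave quasi-likelihood tests for 11 comparisons, with Benjamini-Hochberg adjustment over all tested genes in each. CPM use TMM-scaled library sizes. The edgeR fit was tested on simulated counts for 1 comparison, LPS in WT. The other comparisons, the alternatives and the promoter search were not tested in this way. Total counts were 14636058 to 19181707. All pairs of libraries within groups differed by more than sampling noise (chi-square per degree of freedom 8.39 to 74.5). The limit for 0 counts is 3 counts and covers counting error only, since PCR copies are counted without molecular identifiers.

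Same-numbered libraries were taken as paired where all 4 correlations of their deviations from the group means exceeded 0.1. This held for LPS against untreated in WT (0.113 to 0.150) and in KO (0.155 to 0.296) and for untreated KO and dCIS (0.114 to 0.359), and failed in the other pairs of groups, among them dCIS untreated and treated (0.0396 to 0.339). In that last pair the highest correlation between unlike numbers was 0.0301, so each library still went best with its own number. For untreated KO and dCIS it was 0.160, above the lowest same-number value. The labels do not say what the numbers mean.

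Within a genotype the members named with values were the 5 with the largest called fall, those that rose, those not called and the first of each role; between genotypes, the called members up to 10 by p, or else the 3 with the smallest p. From each other list, up to 3 called genes with the smallest p after LPS in WT and up to 2 that moved against most of the list were named. Further members were named to account for each role. Alternatives were DESeq2 1.42.0, median-of-ratios factors, no filter or a stricter one (CPM above 1 in 4 libraries), fits restricted to the groups compared, the replicate block, and leaving out each library. Promoters come from RefSeq tables of GRCm38.p6, which is not the build of the counts, and were used for letters alone.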

Additional observations from a re-analysis of the deposited data

Results flagged for a closer look

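Among the 240 sets of 4 libraries (40 genes in 6 groups), 9 (3.75%) had 1 library far from the other 3, where chance gives about 1 in 20. Library 1 of untreated KO was the high one for 4 genes. Bub1 measured 10.9 CPM there and 4.79 to 5.49 in the other 3 libraries. Cdca8 measured 15.6 CPM against 10.1 to 10.3, Spc25 8.43 against 4.58 to 4.88, and Tpx2 27.5 against 15.5 to 17.5. After LPS, KO library 1 was high for Spc24, at 1.95 CPM against 0.669 to 0.808. KO library 2 was high for Kif2c, at 0.270 CPM against 0.0797 to 0.0927, which is only 3 counts against 1 in each other library. Low values were those of Prc1 in KO library 4 after LPS (0.797 CPM against 1.5 to 1.58), Ccna2 in dCIS library 3 after LPS (2.34 against 3.84 to 4.05) and Ndc80 in dCIS library 4 after LPS (0.245 against 2.03 to 2.27).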

How the results depend on the processing

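After LPS the number of members that fell was within 1.5 times the value given above under every alternative. Leaving out 1 library gave 33 to 38 in WT, 34 to 37 in KO and 37 to 38 in dCIS, with 1 to 1 higher in each. Without dCIS libraries 3 and 4 after LPS, 34 fell in dCIS, and Cenpe there turned from -0.26 to 0.26; the cause was not tested. With the replicate block the members that rose after LPS were 2 in WT (block within each genotype) and 2 in KO (block within each genotype or over all groups), Cenpe being the second.

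Counts between genotypes depended on the processing. For dCIS against WT 0 became 22 untreated and 9 after LPS without the filter (0.221% and 0.767% of all tested genes were called). It became 12 and 4 with the replicate block over all groups (0.23% and 0.617%), and 1 after LPS with DESeq2 (1.48%). For KO against WT, 1 untreated became 7 without the filter and 6 with the block (4.31% and 13.4% of all tested genes). With DESeq2 it was 0 of the 36 members given an adjusted p (14.2%), and Spc24 was not among these. After LPS, 0 became 9 without the filter and 5 with the block (2.87% and 7.17%). It became 2 with DESeq2 and 3 when fitted on these groups alone (7.24% and 15.9%). For KO against dCIS, 25 untreated became 39 with the block in a fit of both groups (26.3% of all tested genes). The 7 after LPS became 26 without the filter, 23 with the block and 18 with DESeq2 (2.35%, 5.09% and 4.6%). Leaving out 1 library gave 11 to 30 for KO against dCIS untreated, 0 to 9 after LPS, 0 to 4 for KO against WT untreated, and 0 to 0 for the other genotype contrasts and both differences of responses. The blocked fits changed no other count by over 1.5 times. Where the rule for pairing was not met, what same-numbered libraries share was not tested.

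Low counts limit what can be said of Cdc20, Cenpf and Kif2c after LPS, which have libraries at 0. Dose, time course and cell number were not part of the data, and 4 libraries per group of unknown origin set the precision of every comparison.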

Other observations

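Genes that act before mitosis were compared after LPS in the same fit, where 30.7% to 33.3% of all tested genes fell and 30.4% to 31.3% rose. Of 35 DNA replication genes 30 fell and 2 rose in WT, 27 fell and 3 rose in KO, and 30 fell and 1 rose in dCIS. Mcm2, Mcm7 and Mcm3, subunits of the replicative helicase, fell by 3.35, 2.82 and 2.55 in WT (log2 scale), while the clamp loader gene Rfc3 rose by 1.26 and Pcna, the clamp, by 0.30 (edgeR adjusted p = 0.045). In untreated dCIS all 35 lay above WT in the fit with 0 called (0.0542% of all tested genes were) and a median of 0.38. Of the 35, 27 were lower in untreated KO than in dCIS, against 9.25% of all tested genes, and these contrasts share libraries.

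Of 20 tested G1 cyclins, kinases and inhibitors, 8 rose and 8 fell in each genotype. Ccnd2, which encodes cyclin D2, rose by 4.50 in WT, the inhibitor gene Cdkn1a (p21) by 2.61 and the stress gene Gadd45b by 3.09, while Cdk2 and Cdk4 fell by 3.09 and 1.09. Among 24 regulators of mitotic genes, 14 fell and 5 rose in WT. E2f1 fell by 2.22 and the repressor E2f6 by 2.00. Rbl1, which encodes the DREAM subunit p107, rose by 2.68, and E2f5 by 1.04. Foxm1 and Mybl2, the activators of mitotic genes, chosen after their values were seen, fell by 2.21 and 2.61.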
